A study of Arabidopsis thaliana with 9 samples.

Results

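The 52 genes described here drive and restrain the cell cycle of Arabidopsis thaliana, and they were chosen by name from the 32548 genes of an RNA-seq table of whole seedlings. They fall into 12 S phase genes (MCM2 to MCM7, CDC6, CDT1A, PCNA1, PCNA2 and both A3-type cyclins), 21 mitotic genes (the other A-type cyclins, 9 B-type cyclins, 4 CDKB kinases, KNOLLE, CDC20.1 and CDC20.2), 9 D-type cyclins, 9 inhibitors (KRP1 to KRP7, SIM and SMR1) and the kinase gene CDKA;1. Seedlings of 3 genotypes were sampled at 11 days, after growth on MS medium plates at 22 °C with 16 h of light and 8 h of dark, and each genotype had 3 libraries. The al24567 seedlings carried mutant alleles of the 5 ALFIN-like genes AL2, AL4, AL5, AL6 and AL7, whose proteins bind methylated histone H3. The ring1a1b seedlings carried mutant alleles of RING1A and RING1B, which encode Polycomb proteins for the ubiquitination of histone H2A. The wild type was Col-0.

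In a plant cell, D-type cyclins bind CDKA;1 and phosphorylate the retinoblastoma protein RBR1, which frees E2F factors to switch on genes for DNA replication. The MCM helicase, loaded on DNA by CDC6 and CDT1, then opens replication origins. B-type cyclins and CDKB kinases drive mitosis, many of them through promoters with the mitosis-specific activator (MSA) element that MYB3R factors bind. KRP and SIM-type proteins inhibit cyclin-dependent kinases, and some of them favour endoreduplication, in which DNA is copied without division. In seedlings these genes are mainly active in meristems and young organs.

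All values below are read counts adjusted by the authors to a common library size, called adjusted counts, and their log2 fold changes were taken after adding 1, which understates the change of genes with few reads. A gene was called when its Benjamini-Hochberg adjusted p in limma, fitted over 23207 genes, was below 0.05. Between 18258434 and 22435655 reads lay behind each library, so 3 counts correspond to 0.134 to 0.164 CPM, or counts scaled to a common total. Libraries of 1 genotype correlated at 0.980 to 0.985 across genes, against 0.941 to 0.967 for different genotypes. The labels do not say whether the libraries came from separate plantings, so the p-values measure the spread between these libraries only. Of the genes that the labels give as mutant, AL2, AL4, AL6 and AL7 fell in al24567 by 1.72 to 2.69 on the log2 scale, whereas AL5 stood at 87.2 to 89.2 adjusted counts in al24567 and 84.4 to 96.0 in Col-0 (limma adjusted p = 0.844). The labels do not describe the al5 allele, so the AL5 level does not check that label. RING1A stood at 0 to 3.04 adjusted counts in ring1a1b against 134 to 165 in Col-0, and RING1B fell by 0.79 on the log2 scale in ring1a1b.

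All 52 cell cycle genes were tested, and 51 had reads in every library, with CYCD7;1 the exception. In al24567, 19 of the 52 were called against Col-0, or 36.5%, next to 36.3% of all genes tested. They split unevenly: 15 fell, or 28.8% of the 52 against 18.4% of all genes, and 4 rose, or 7.69% against 17.9%. In ring1a1b, 5 of the 52 were called against Col-0, or 9.62%, next to 17.7% of all genes. Of these 3 rose (5.77%, against 10.0% of all genes) and 2 fell (3.85%, against 7.67%). The median log2 fold change of the 52 genes was -0.25 in al24567 and -0.07 in ring1a1b, beside -0.02 in each comparison over all genes. The comparisons of the mutants with Col-0 share the Col-0 libraries. Set directly against al24567, ring1a1b had 16 of the 52 called higher and 8 called lower, next to 20.0% and 18.9% of all genes (39.0% in either direction). Libraries that do not overlap were common. Those of al24567 and Col-0 did not overlap in 21 of the 52 genes, next to 47.7% of all genes. For ring1a1b and Col-0 this held in 14 of the 52, next to 35.7%, and for ring1a1b and al24567 in 26, next to 47.2%. Because whole seedlings were sampled, fewer dividing cells and less RNA per dividing cell cannot be told apart in any of these values.

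**Figure D1:**
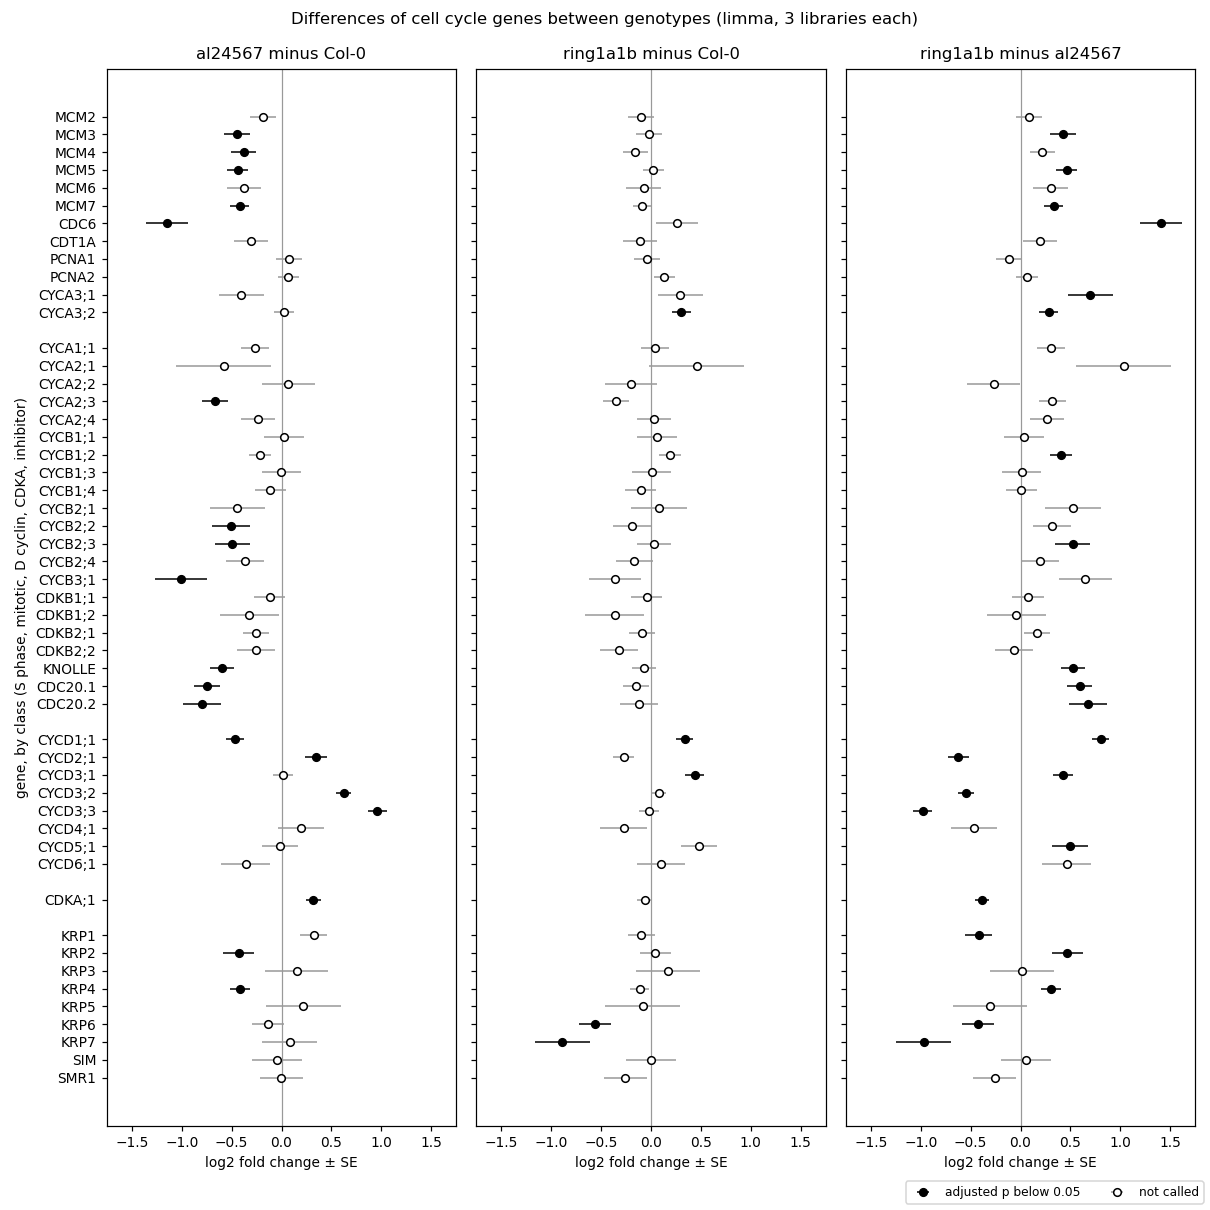
Log2 fold changes with their standard errors (x axis) for 51 cell cycle genes (y axis, grouped by class), for the 3 pairwise comparisons of genotypes, 3 libraries each. Filled points are genes called at an adjusted p below 0.05. CYCD7;1, with at most 27 reads over the libraries of a genotype, is left out. In al24567 the called S phase and mitotic genes lie left of 0, while CYCD2;1, CYCD3;2, CYCD3;3 and CDKA;1 lie to the right.

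Among the 12 S phase genes, 5 fell in al24567 (MCM3, MCM4, MCM5, MCM7 and CDC6), or 41.7% next to 18.4% of all genes, and 0 rose. The other 7 were not called. The median log2 fold change of the 12 was -0.38, and 3 of the fold changes were positive. In ring1a1b 1 rose (CYCA3;2) and 0 fell, with a median of -0.03. Counts of 0 by limma were also 0 by edgeR and DESeq2, and at an unadjusted p below 0.05 there were 0 higher in al24567 and 0 lower in ring1a1b. Summed over the class, adjusted counts ran from 2520 to 3154 in the al24567 libraries, 3285 to 3520 in the ring1a1b libraries and 3290 to 3472 in the Col-0 libraries, so that every al24567 library lay below every library of the other genotypes.

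CDC6 (AT2G29680, chr2:12689171-12693121 in TAIR10.1), which loads the MCM helicase onto origins, had the lowest fold change in al24567 of all 52 genes. It had 47.1, 38.2 and 32.5 adjusted counts in al24567, 95.0, 108 and 112 in ring1a1b and 91.4, 92.6 and 78.4 in Col-0. The al24567 libraries lay apart from all the others, at a log2 fold change of -1.15 ± 0.21 against Col-0 (± SE, limma adjusted p = 0.000247) and, for ring1a1b minus al24567, of 1.41 ± 0.21 (adjusted p = 2.6e-05). In ring1a1b against Col-0 its adjusted p was 0.455.

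The 6 MCM genes encode the subunits of one ring-shaped helicase, and all 6 had negative fold changes in al24567, of -0.44 to -0.19, and 4 were called. MCM5 (AT2G07690, chr2:3522984-3527500) had 267, 301 and 241 adjusted counts in al24567, 394, 347 and 373 in ring1a1b and 366, 365 and 363 in Col-0. It fell by 0.44 ± 0.10 on the log2 scale in al24567 (limma adjusted p = 0.00272). MCM7 (AT4G02060, chr4:900636-905591) had 349, 371 and 310.1 adjusted counts in al24567, 408, 427 and 462 in ring1a1b and 460, 442 and 475 in Col-0, and fell by 0.42 ± 0.10 in al24567 (adjusted p = 0.00193). For both genes the 3 al24567 libraries lay below all the others. STP7, on the opposite strand, shares 21 exon bases with MCM7 and rose by 0.67 ± 0.08 in al24567, and the part of shared reads in the MCM7 values was not tested. MCM3 (AT5G46280) averaged 288 ± 59.1 adjusted counts in al24567, 382 ± 21.1 in ring1a1b and 388 ± 43.7 in Col-0 (SD, n = 3 each), with a fold change of -0.44 ± 0.13 in al24567 and overlapping libraries. MCM4 (AT2G16440) averaged 296 ± 60.3, 339.5 ± 6.49 and 379.6 ± 19.3 in the same genotypes, with -0.38 ± 0.12 (SE) in al24567. MCM2 and MCM6 were not called: MCM2 averaged 334 ± 70.3 in al24567, 352 ± 43.4 in ring1a1b and 375 ± 11.1 in Col-0, and MCM6 averaged 199.5 ± 57.3, 240.4 ± 33.6 and 252 ± 23.5. In ring1a1b minus al24567, MCM3, MCM5 and MCM7 were called higher, by 0.42, 0.46 and 0.33.

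MCM3 and MCM4 were called by a small margin. Their adjusted p in al24567 passed 0.05 without al24567 replicate 3 (0.0788 for MCM3 and 0.148 for MCM4) and without Col-0 replicate 1 (0.0534 and 0.0681), MCM3 also without Col-0 replicate 3 (0.0664) and MCM4 without Col-0 replicate 2 (0.0818). In ring1a1b minus al24567, MCM3 was lost without al24567 replicate 3 (adjusted p = 0.0954) or ring1a1b replicate 3 (0.0524), and MCM7 without ring1a1b replicate 3 (0.0546). Within al24567, replicate 3 was the lowest of the 3 libraries for 8 of the 12 S phase genes and replicate 2 the highest for 8.

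The clamp and S phase cyclin genes were not called lower in al24567. PCNA1 and PCNA2 encode the sliding clamp of the replication fork. PCNA1 averaged 227 ± 23.5 adjusted counts in al24567, 209.7 ± 17.7 in ring1a1b and 216 ± 27.9 in Col-0, and PCNA2 averaged 323 ± 8.28, 339 ± 38.5 and 308 ± 20.96 (SD, n = 3 each). Neither was called in any comparison. The exons of PCNA2 share 279 bases with ENOC on the opposite strand. ENOC averaged 558 ± 37.2 adjusted counts in al24567, 569 ± 11.3 in ring1a1b and 538 ± 20.35 in Col-0. The part of shared reads in the PCNA2 values was not tested. CDT1A, the partner of CDC6 in loading, averaged 155 ± 28.7 in al24567, 177 ± 28.6 in ring1a1b and 191 ± 31.0 in Col-0 and was not called. The S phase cyclin CYCA3;2 (AT1G47210) had 292, 319 and 323 adjusted counts in al24567, 394, 358 and 383 in ring1a1b and 294, 319 and 306 in Col-0. It rose by 0.30 ± 0.10 in ring1a1b against Col-0 (limma adjusted p = 0.0376), where the libraries did not overlap, and was 0.28 higher in ring1a1b than in al24567. Its call against Col-0 was lost without any 1 of 5 libraries: Col-0 replicate 1, 2 or 3 (adjusted p = 0.130, 0.0602 and 0.0983) or ring1a1b replicate 1 or 3 (0.122 and 0.108). Its call against al24567 was lost without al24567 replicate 1 (0.0888) or ring1a1b replicate 1 or 3 (0.0961 and 0.0809). CYCA3;1 averaged 50.04 ± 10.8 adjusted counts in al24567, 81.4 ± 13.0 in ring1a1b and 65.7 ± 5.18 in Col-0. It was called only in ring1a1b minus al24567, at 0.70 ± 0.22 (adjusted p = 0.0188), and not without al24567 replicate 1 or 3 (0.0668 and 0.0525) or ring1a1b replicate 1 (0.0875).

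The promoters of the MCM genes share the letters that E2F factors are known to bind. The 300 bases from 250 before to 50 after each annotated gene start, read from the TAIR10.1 genome of RefSeq, were searched on both strands for TTTCCCGC, TTTCGCGC, TTTGCCGC and TTTGGCGC. They were found in 483 of 27443 promoters of protein-coding genes, or 1.76%, and in 5 of the 6 MCM promoters, with MCM7 the exception. The matches with 11 bases on each side are shown on the strand of the gene, with the E2F letters in capitals, because all but one of the MCM promoters hold them.
MCM2 (chr1:16970189-16970218, + strand): tggcgccaataTTTCCCGCctaatcgacga
MCM3 (chr5:18773858-18773887, - strand): ggaaatcaaacGCGCCAAAcaagcgcgtag
MCM4 (chr2:7130746-7130775, - strand): cagtaataatgGCGCCAAAatcaagtgaag
MCM5 (chr2:3527501-3527530, - strand): cggcccatcagTTTCCCGCcacattgttcc
MCM6 (chr5:18010695-18010724, - strand): tatactttttaGCGGGAAAatgttagagga
CYCD3;3 (chr3:18566920-18566949, - strand): aattttctcgcGCGCCAAAcatccgaatat
The matches of MCM2 and MCM5 read the same 8 letters, at 14 and 19 bases before the gene start, and MCM3, MCM4 and CYCD3;3 share another 8, at 170, 35 and 104 bases before it. MCM6 holds the letters of MCM2 and MCM5 on the opposite strand, at 46 bases before the gene start. The only other match among the 52 promoters was that of CYCD3;3, a D-type cyclin that rose in al24567. Of the 5 MCM genes with a match, MCM3, MCM4 and MCM5 fell in al24567, and so did MCM7 and CDC6, whose promoters held none of these letters in the window. A match is a description of the letters and not evidence that a factor binds there.

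Of the 21 mitotic genes, 7 fell in al24567, or 33.3% next to 18.4% of all genes, while 14 were not called and 0 rose. Across the class the median was -0.32 on the log2 scale, and 19 of the 21 fold changes were negative. In ring1a1b 0 of the 21 were called by limma, edgeR or DESeq2, with a median of -0.09, and 1 was lower at an unadjusted p below 0.05. That gene was CYCA2;3, which had the smallest p of the class in ring1a1b, with a log2 fold change of -0.35 ± 0.13 and an adjusted p of 0.0795 (limma). DESeq2 called 5 of the mitotic genes lower in al24567 and edgeR 7. The summed adjusted counts of the class ran from 2532 to 2962 in the al24567 libraries, 3042 to 3627 in the ring1a1b libraries and 3450 to 3626 in the Col-0 libraries. The al24567 libraries were the lowest 3 of the 9, and within al24567 replicate 3 was the lowest of the 3 for 11 of the 21 genes and replicate 2 the highest for 14.

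The 3 genes of anaphase and cytokinesis all fell in al24567. KNOLLE (AT1G08560, chr1:2709525-2711000), a syntaxin of the forming cell plate, had 246, 236 and 239 adjusted counts in al24567, 431, 304 and 314 in ring1a1b and 368, 362 and 357 in Col-0. Its al24567 libraries lay below all the others, with a log2 fold change of -0.59 ± 0.12 (± SE, limma adjusted p = 0.000749) against Col-0 and 0.52 ± 0.12 for ring1a1b minus al24567 (adjusted p = 0.00203). The exons of KNOLLE overlap those of NPQ1 on the opposite strand over 464 bases, and the labels do not state whether counting used strand. NPQ1 averaged 740.0 ± 85.9 adjusted counts in al24567, 1232 ± 4.21 in ring1a1b and 1386 ± 105 in Col-0 (SD, n = 3 each) and fell by 0.91 ± 0.08 in al24567, and the part of shared reads in the KNOLLE values was not tested.

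CDC20.1 (AT4G33270) and CDC20.2 (AT4G33260) encode activators of the anaphase-promoting complex and lie next to each other on chromosome 4. CDC20.1 had 244, 254 and 217 adjusted counts in al24567, 432, 288 and 371 in ring1a1b and 372, 420.2 and 404 in Col-0, and fell by 0.74 ± 0.13 in al24567 (limma adjusted p = 0.000151). CDC20.2 had 101, 119.5 and 67.4 adjusted counts in al24567, 161, 136 and 153 in ring1a1b and 149.8, 155 and 187 in Col-0, and fell by 0.80 ± 0.19 (adjusted p = 0.00274). In both genes every al24567 library lay below every other library. Their transcripts are 97.0% identical over 1366 bases, so how reads were divided between them is uncertain. Both were called higher in ring1a1b minus al24567, by 0.59 ± 0.13 and 0.67 ± 0.19, and CDC20.2 was lost there without al24567 replicate 3 (adjusted p = 0.0528).

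Among the A- and B-type cyclins outside S phase, 4 of 14 fell in al24567, next to 18.4% of all genes. CYCA2;3 (AT1G15570) had 165, 244 and 204 adjusted counts in al24567, 236, 246 and 277 in ring1a1b and 324, 329.7 and 310.5 in Col-0, a fold change of -0.67 ± 0.13 in al24567 (limma adjusted p = 0.000572). The libraries of both mutants lay below those of Col-0, and ring1a1b minus al24567 had an adjusted p of 0.0643. IAA5, on the opposite strand, shares 48 exon bases with it and fell by 1.98 ± 0.31 in al24567, at 8.10 ± 0.35 adjusted counts against 35.8 ± 10.5 in Col-0 (SD, n = 3 each). CYCB3;1 (AT1G16330) had 26.1, 48.6 and 39.9 adjusted counts in al24567, 53.3, 59.1 and 64.1 in ring1a1b and 89.2, 58.2 and 82.4 in Col-0, and fell by 1.01 ± 0.26 (adjusted p = 0.00511). CYCB2;2 (AT4G35620) had 72.2, 100.5 and 68.1 adjusted counts in al24567, 90.2, 96.2 and 111 in ring1a1b and 101, 112 and 127 in Col-0, with a fold change of -0.51 ± 0.19 in al24567 (adjusted p = 0.0475). CYCB2;3 (AT1G20610) had 80.2, 130.1 and 99.99 adjusted counts in al24567, 158, 139 and 143 in ring1a1b and 154, 135 and 142 in Col-0, with -0.50 ± 0.18 (adjusted p = 0.0331). It is 97.3% identical over 583 bases to AT1G20590, which averaged 0.352 ± 0.601 adjusted counts in al24567 (SD, n = 3), so its count too is uncertain. In these B-type cyclins the al24567 and Col-0 libraries did not overlap, but for CYCB2;2 and CYCB2;3 the lowest Col-0 library lay close to the highest al24567 library.

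The calls of CYCB2;2 and CYCB2;3 in al24567 were lost under several alternatives. DESeq2 gave them adjusted p of 0.0679 and 0.0507, and the first also missed the threshold with no filter (0.0585) and with only al24567 and Col-0 in the fit (0.0525). CYCB2;2 was lost on leaving out Col-0 replicate 1, 2 or 3 (adjusted p = 0.0527, 0.0938 and 0.171) or al24567 replicate 1 or 3 (0.122 and 0.155), and CYCB2;3 without Col-0 replicate 1, 2 or 3 (0.109, 0.0515 and 0.0753) or al24567 replicate 1 or 3 (0.155 and 0.0665). CYCB2;3 was called higher in ring1a1b minus al24567, by 0.52 ± 0.18, but not without al24567 replicate 1 (0.114) or ring1a1b replicate 1 (0.0771). CYCB1;2 (AT5G06150), with 258 ± 21.2 adjusted counts in al24567, 342 ± 30.7 in ring1a1b and 299 ± 8.61 in Col-0 (SD, n = 3 each), was called only in ring1a1b minus al24567, at 0.41 ± 0.11 (limma adjusted p = 0.00547). It is 97.7% identical over 390 bases to CYCB1;5, which averaged 9.81 ± 2.70 adjusted counts in al24567, 82.2 ± 12.0 in ring1a1b and 37.0 ± 5.42 in Col-0, so the count of each is uncertain.

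The remaining mitotic genes were not called in any comparison. CYCB1;1, a widely used marker of cells in G2 and mitosis, averaged 96.3 ± 20.23 adjusted counts in al24567, 98.1 ± 16.6 in ring1a1b and 93.8 ± 12.5 in Col-0 (SD, n = 3 each). CYCB1;3 averaged 99.8 ± 6.62, 102 ± 21.8 and 101 ± 15.2 in the same genotypes. The 4 CDKB genes, plant-specific mitotic kinases, had fold changes of -0.32 to -0.12 in al24567 and -0.37 to -0.04 in ring1a1b. The highest of them, CDKB2;1, averaged 291 ± 20.3 adjusted counts in al24567, 330.5 ± 61.0 in ring1a1b and 348 ± 31.9 in Col-0. CDKB1;2 averaged 56.5 ± 26.9, 52.1 ± 13.2 and 66.0 ± 4.04 in the same genotypes. Its exons share 281 bases with AT2G38630 on the opposite strand, which averaged 193 ± 23.1, 226 ± 16.5 and 213 ± 31.5. The part of shared reads in the CDKB1;2 values was not tested. CYCA2;1 had the fewest reads of the class, at 6.98 ± 3.52 adjusted counts in al24567, 15.3 ± 6.94 in ring1a1b and 10.9 ± 4.55 in Col-0. The other 6 (CYCA1;1, CYCA2;2, CYCA2;4, CYCB1;4, CYCB2;1 and CYCB2;4) averaged between 29.9 and 178 adjusted counts in al24567.

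**Figure D2:**
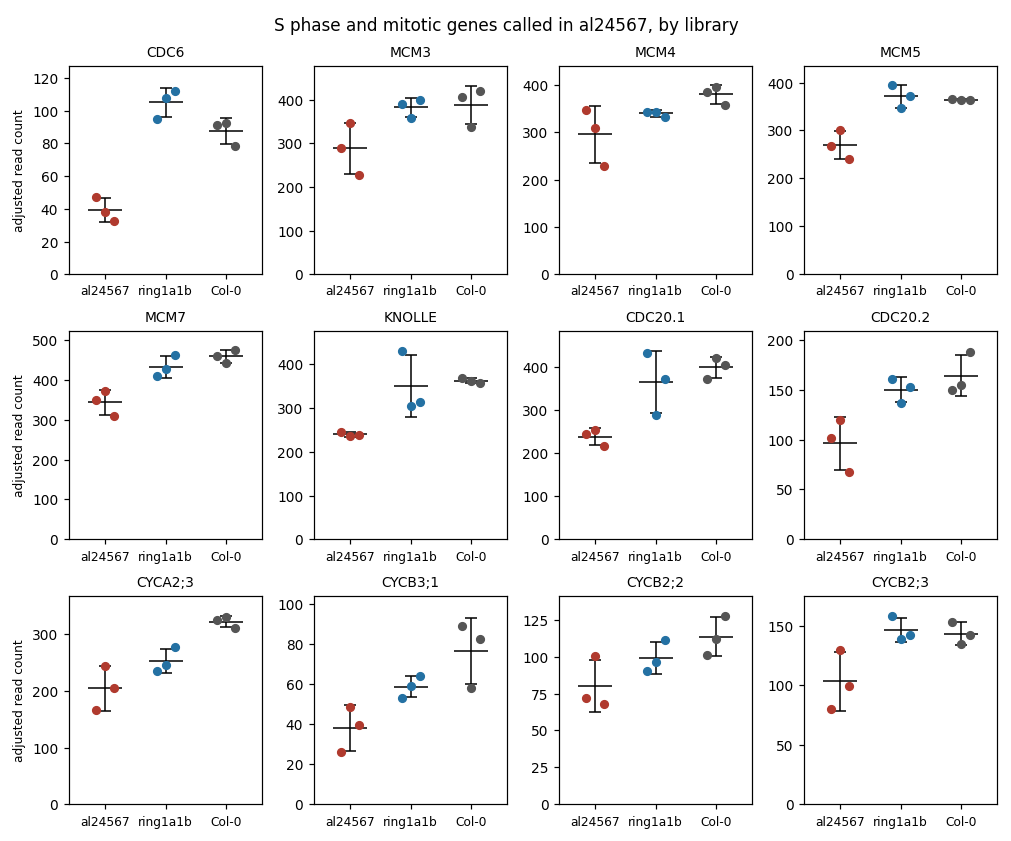
Adjusted counts (y axis, linear from 0) of the 12 S phase and mitotic genes called in al24567, with 1 point per library and the mean and SD as bars, for al24567, ring1a1b and Col-0 from left to right. In CDC6, KNOLLE, CDC20.1, CDC20.2, MCM5 and MCM7 the 3 al24567 points lie below all others. In MCM3 the al24567 and Col-0 points overlap.

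The core letters of the MSA element, AACGG on either strand, were common in these promoters. They occurred in 8 of the 9 B-type cyclin promoters (88.9%) and in 13 of the 21 mitotic promoters (61.9%), next to 24.7% of all protein-coding promoters. The promoters of CYCB2;2, CYCB2;3 and KNOLLE, genes that fell in al24567, hold 3 matches each and are shown because they carry the letters several times, with the matches in capitals.
CYCB2;2 (chr4:16901346-16901645, + strand): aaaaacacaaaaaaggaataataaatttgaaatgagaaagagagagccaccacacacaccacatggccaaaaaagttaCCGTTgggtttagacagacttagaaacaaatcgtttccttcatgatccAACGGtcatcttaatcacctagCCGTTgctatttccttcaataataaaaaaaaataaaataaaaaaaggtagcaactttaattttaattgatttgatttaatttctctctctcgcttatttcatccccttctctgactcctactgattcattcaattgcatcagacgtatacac
CYCB2;3 (chr1:7137779-7138078, - strand): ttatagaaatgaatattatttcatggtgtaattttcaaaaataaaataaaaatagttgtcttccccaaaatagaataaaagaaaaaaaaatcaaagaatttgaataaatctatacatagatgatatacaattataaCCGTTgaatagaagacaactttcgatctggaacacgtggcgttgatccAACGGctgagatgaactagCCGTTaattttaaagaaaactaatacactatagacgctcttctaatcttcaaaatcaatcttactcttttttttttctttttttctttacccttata
KNOLLE (chr1:2710951-2711250, - strand): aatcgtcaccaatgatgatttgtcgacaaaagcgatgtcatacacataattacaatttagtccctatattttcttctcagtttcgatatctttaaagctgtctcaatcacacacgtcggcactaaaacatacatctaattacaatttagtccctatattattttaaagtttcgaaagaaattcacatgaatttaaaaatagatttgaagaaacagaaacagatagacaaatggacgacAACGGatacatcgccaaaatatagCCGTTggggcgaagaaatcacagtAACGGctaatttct
In CYCB2;2 the matches start 172, 124 and 102 bases before the gene start and in CYCB2;3 114, 66 and 47 bases before it, whereas in KNOLLE 2 of the 3 lie behind the start. Genes with and without the letters were called. CYCB1;2, with 5 matches, was not called in al24567 against Col-0, nor were CYCA1;1, CYCB1;1, CYCB1;3 and CYCB2;1, with 3 each. CYCA2;3 and CDC20.1, with 0 matches in this window, fell. KRP promoters held the letters in 5 of 7 cases.

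**Figure D3:**
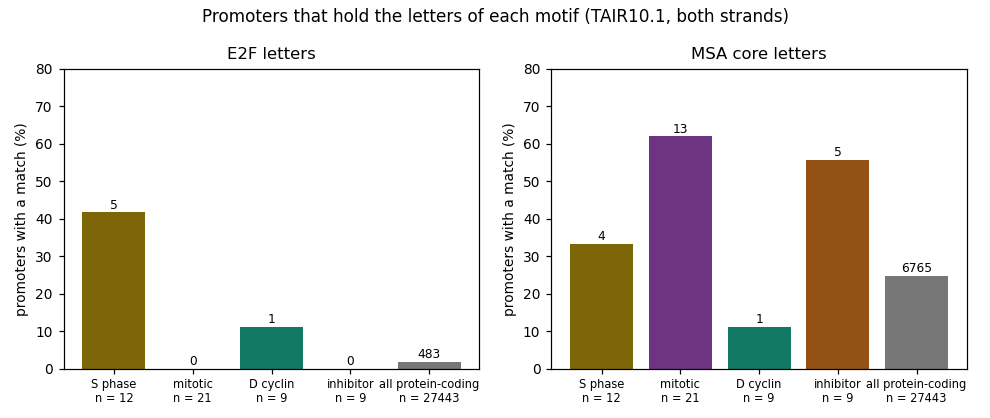
Share of promoters (y axis, percent, from 0) that hold the E2F letters (left) or the MSA core letters (right) on either strand, by class, beside all 27443 protein-coding promoters. Numbers above the bars are promoters with a match. E2F letters occur in 5 of 12 S phase and 0 of 21 mitotic promoters, and MSA core letters in 13 of 21 mitotic promoters.

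The D-type cyclins moved in both directions, and their pattern differed between the mutants. In al24567, 3 of the 9 rose (CYCD2;1, CYCD3;2 and CYCD3;3) and 1 fell (CYCD1;1), next to 17.9% and 18.4% of all genes. In ring1a1b, 2 rose (CYCD1;1 and CYCD3;1) and 0 fell, next to 10.0% and 7.67% of all genes. edgeR and DESeq2 also called 0 lower, and 1 was lower at an unadjusted p below 0.05. The class medians were 0.19 in al24567 and 0.08 in ring1a1b. In ring1a1b minus al24567, 7 of the 9 were called, or 77.8% next to 39.0% of all genes. Of these 3 were higher (CYCD1;1, CYCD3;1 and CYCD5;1) and 4 lower (the 3 that rose in al24567 and CYCD7;1), next to 20.0% and 18.9% of all genes.

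CYCD3;3 and CYCD3;2 belong to the CYCD3 group, which prolongs cell division in young leaves and responds to cytokinin. CYCD3;3 (AT3G50070, chr3:18565134-18566834) had 543, 559 and 509 adjusted counts in al24567, 259, 268 and 289 in ring1a1b and 276, 266 and 284 in Col-0. It rose by 0.96 ± 0.10 on the log2 scale in al24567 (limma adjusted p = 3.2e-07), or 1.95-fold, and every al24567 library lay above every other library. CYCD3;2 (AT5G67260, chr5:26836139-26839597) had 1638, 1424 and 1464 adjusted counts in al24567, 990.4, 1084 and 1020 in ring1a1b and 942, 936 and 1056 in Col-0, and rose by 0.62 ± 0.08 in al24567 (adjusted p = 3.81e-06), again without overlap. Between ring1a1b and Col-0 the libraries of both genes overlapped. CYCD3;1 (AT4G34160) had 391.9, 510.1 and 451 adjusted counts in al24567, 572, 646 and 589.7 in ring1a1b and 436, 454 and 442 in Col-0. It was the member of the CYCD3 group that rose in ring1a1b, by 0.44 ± 0.10 (adjusted p = 0.00365), and its call there held under every alternative tried. Its exons share 40 bases with AT4G34150 on the same strand, which fell by 0.72 ± 0.09 in ring1a1b.

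CYCD1;1 was called in opposite directions in the mutants. CYCD1;1 (AT1G70210) had 364, 425 and 381 adjusted counts in al24567, 687, 705 and 647 in ring1a1b and 537, 573 and 506 in Col-0, so that the 3 genotypes did not overlap. The log2 fold change was -0.47 ± 0.09 in al24567 (limma adjusted p = 0.000391) and 0.34 ± 0.09 in ring1a1b (adjusted p = 0.0121), and ring1a1b minus al24567 was 0.80 ± 0.09 (adjusted p = 8.5e-07). The rise in ring1a1b was lost on leaving out Col-0 replicate 3 (adjusted p = 0.0710) or ring1a1b replicate 2 (0.0525). CYCD2;1 (AT2G22490) had 448, 573 and 535 adjusted counts in al24567, 384, 306 and 320 in ring1a1b and 416, 394 and 408 in Col-0. It rose by 0.35 ± 0.11 in al24567 (adjusted p = 0.0179), a call lost on leaving out Col-0 replicate 2 (0.0613) or al24567 replicate 2 or 3 (0.0877 and 0.0540), and was 0.62 ± 0.11 lower in ring1a1b than in al24567 (adjusted p = 0.00016).

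The other D-type cyclins had fewer reads. CYCD5;1 averaged 80.03 ± 12.2 adjusted counts in al24567, 113 ± 5.73 in ring1a1b and 80.5 ± 2.18 in Col-0 (SD, n = 3 each). It was called only in ring1a1b minus al24567, at 0.50 ± 0.18 (limma adjusted p = 0.0364), and not without al24567 replicate 1 or 3 (0.121 and 0.0745) or any 1 ring1a1b library (0.0676, 0.103 and 0.0684 without replicates 1, 2 and 3), nor with only the 2 genotypes in the fit (0.0514). CYCD4;1 averaged 57.4 ± 3.40 in al24567, 41.6 ± 7.28 in ring1a1b and 50.1 ± 1.45 in Col-0 and CYCD6;1, known for the formative divisions of the root ground tissue, averaged 51.8 ± 13.7, 70.2 ± 3.85 and 66.6 ± 15.6, and neither was called. CYCD6;1 shares 393 exon bases with AT4G03260 on the opposite strand, which averaged 3861 ± 230 in al24567, 2937 ± 92.1 in ring1a1b and 3151 ± 121 in Col-0. The part of shared reads in the CYCD6;1 values was not tested. CYCD7;1, a cyclin of the guard cell lineage, had 11.0, 11.6 and 5.73 adjusted counts in al24567, 0, 0 and 7.08 in ring1a1b and 6.17, 3.16 and 0 in Col-0. It was called lower in ring1a1b than in al24567 by limma (adjusted p = 0.0283) although the libraries overlapped, but not by edgeR (0.113) or DESeq2 (0.158), and not by limma without al24567 replicate 1 or 2 (0.0776 and 0.0853) or ring1a1b replicate 1 or 2 (0.111 and 0.107).

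Per kilobase of exon, the order of D-type cyclin levels changed with genotype. CYCD3;2 was the highest in each, at 897 ± 67.6 adjusted counts per kilobase in al24567, 613 ± 28.3 in ring1a1b and 581 ± 40.4 in Col-0 (SD, n = 3 each). In al24567 CYCD3;3 came next at 373 ± 18.0, above CYCD2;1 at 297 ± 36.7 and CYCD3;1 at 241 ± 31.6, whose libraries overlapped, followed by CYCD1;1 at 156 ± 12.7. In ring1a1b the next were CYCD3;1 at 322 ± 20.7 and CYCD1;1 at 271 ± 11.9, followed by CYCD2;1 at 193 ± 24.1 and CYCD3;3 at 189 ± 10.8, which overlapped. In Col-0 CYCD3;1 at 237 ± 4.79, CYCD2;1 at 233 ± 6.26 and CYCD1;1 at 215 ± 13.5 overlapped as neighbours, with CYCD3;3 below them at 191 ± 6.58.

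CDKA;1, the kinase partner of the D-type cyclins, rose in al24567, as CYCD3;2 did. CDKA;1 (AT3G48750, chr3:18071454-18074641) had 1129, 1122 and 1255 adjusted counts in al24567, 896, 876 and 909 in ring1a1b and 914, 975 and 916 in Col-0. It rose by 0.32 ± 0.07 in al24567 (limma adjusted p = 0.00162), with no overlap, and was 0.38 ± 0.07 lower in ring1a1b than in al24567 (adjusted p = 0.000289). In ring1a1b against Col-0 its log2 fold change was -0.06 ± 0.07 and was not called.

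**Figure D4:**
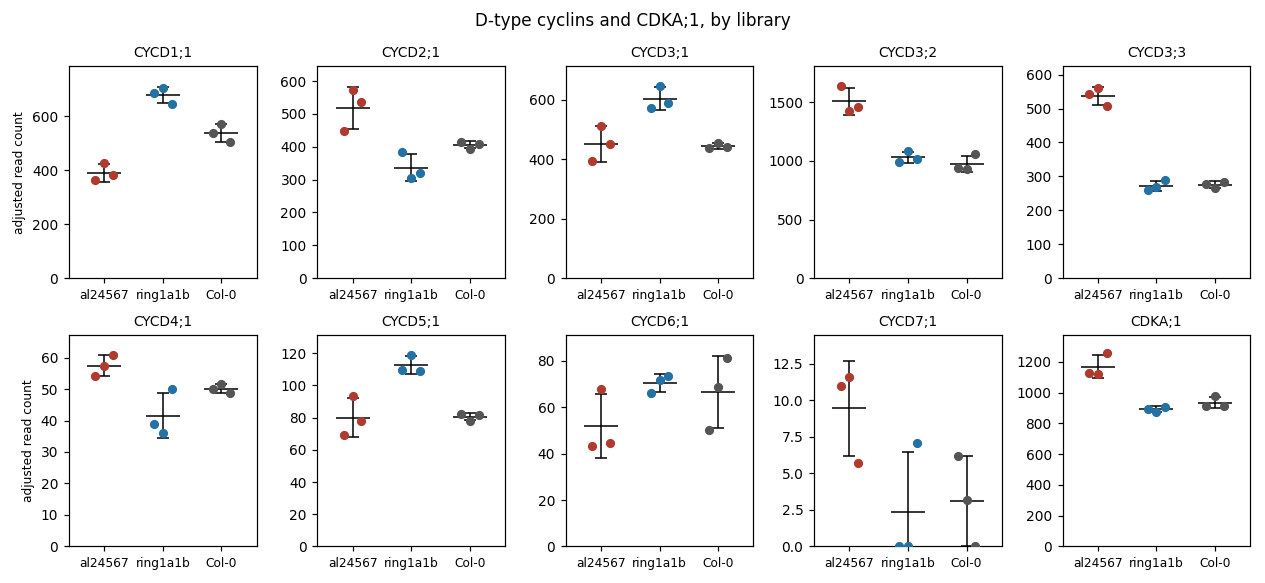
Adjusted counts (y axis, linear from 0) of the 9 D-type cyclins and CDKA;1, with 1 point per library and the mean and SD as bars (cut at 0), for al24567, ring1a1b and Col-0 from left to right. CYCD3;2, CYCD3;3 and CDKA;1 are higher in every al24567 library than in any other library. CYCD1;1 is lowest in al24567 and highest in ring1a1b.

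Of the 9 inhibitors, KRP2 and KRP4 fell in al24567 and KRP6 and KRP7 in ring1a1b. In al24567, 2 of the 9 fell, or 22.2% next to 18.4% of all genes, and 0 rose, with a class median of -0.000284. At an unadjusted p below 0.05 there was 1 higher, KRP1, which edgeR also called, whereas DESeq2 called 0 higher. In ring1a1b, 2 fell, or 22.2% next to 7.67% of all genes, and 0 rose, with a median of -0.10, and 0 were higher at an unadjusted p below 0.05 or by edgeR or DESeq2. KRP4 (AT2G32710) had 433, 404 and 338 adjusted counts in al24567, 477, 480.3 and 485 in ring1a1b and 511, 492 and 561 in Col-0, and fell by 0.42 ± 0.10 in al24567 (limma adjusted p = 0.00253), with no overlap. It shares 926 exon bases with CB5-B on the opposite strand, which averaged 448 ± 76.5 adjusted counts in al24567 and 493 ± 13.8 in Col-0 (SD, n = 3 each) and was not called. KRP2 (AT3G50630) had 144, 164 and 114 adjusted counts in al24567, 190.1, 199 and 190.5 in ring1a1b and 218, 191 and 159 in Col-0, and fell by 0.43 ± 0.16 in al24567 (adjusted p = 0.0387) although 1 al24567 library lay above the lowest of Col-0.

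KRP7 (AT1G49620) had 19.4, 21.9 and 25.4 adjusted counts in ring1a1b against 51.8, 35.9 and 39.2 in Col-0, with 52.1, 40.4 and 41.2 in al24567. The ring1a1b libraries were the lowest 3 of the 9, at a log2 fold change of -0.89 ± 0.28 against Col-0 (limma adjusted p = 0.0302) and -0.97 ± 0.28 against al24567 (adjusted p = 0.00869). KRP6 (AT3G19150) had 94.0, 101 and 122 adjusted counts in ring1a1b against 148, 146 and 174 in Col-0, with 123, 159 and 144 in al24567, and fell by 0.56 ± 0.16 in ring1a1b (adjusted p = 0.0216). For KRP6 the libraries of ring1a1b and Col-0 did not overlap, and the highest ring1a1b library lay just below the lowest of al24567. In ring1a1b minus al24567, KRP2 and KRP4 were called higher, by 0.47 ± 0.16 and 0.30 ± 0.10, and KRP1, KRP6 and KRP7 lower, by 0.42 to 0.97.

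Most inhibitor calls were lost without 1 library or another. In ring1a1b against Col-0, KRP7 was lost on leaving out Col-0 replicate 1 or 3 (adjusted p = 0.142 and 0.0622) or ring1a1b replicate 1 or 2 (0.0927 and 0.0633), and KRP6 without Col-0 replicate 3 (0.106), without ring1a1b replicate 1 or 2 (0.0827 and 0.0598), or with values rescaled to equal totals (0.0552). In al24567, KRP2 was lost on leaving out Col-0 replicate 1 or 2 (0.180 and 0.0933), without al24567 replicate 1 or 3 (0.0521 and 0.179), by DESeq2 (0.0504) and with only al24567 and Col-0 in the fit (0.0516), whereas KRP4 held under every alternative. In ring1a1b minus al24567, KRP1 was lost without al24567 replicate 2 (0.118) or ring1a1b replicate 3 (0.0814), KRP2 without al24567 replicate 3 (0.117) or ring1a1b replicate 2 (0.0588), and KRP4 without al24567 replicate 3 (0.114) or ring1a1b replicate 3 (0.0560). KRP6 was lost there without al24567 replicate 2 or 3 (0.154 and 0.0942) or ring1a1b replicate 1 or 2 (0.150 and 0.103), with equal totals (0.147), with no filter (0.0526), with only the 2 genotypes in the fit (0.0731) and by DESeq2 (0.0603). KRP1 was lost there with equal totals too (0.0879), while KRP7 held.

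KRP1, KRP3, KRP5, SIM and SMR1 were not called against Col-0. KRP1 averaged 343 ± 62.2 adjusted counts in al24567, 254 ± 22.2 in ring1a1b and 273 ± 34.0 in Col-0 (SD, n = 3 each), with an adjusted p of 0.0727 in al24567 by limma, a model fitted over all genes. SIM, which promotes endoreduplication in trichomes, averaged 83.8 ± 29.3 in al24567, 83.6 ± 12.9 in ring1a1b and 83.7 ± 15.1 in Col-0, and SMR1, known for giant cells of the sepal, averaged 129 ± 48.7, 103 ± 9.93 and 124 ± 18.4. KRP3 and KRP5 averaged between 23.3 and 40.5 adjusted counts in each genotype. Per kilobase of exon KRP1 was the highest inhibitor in each genotype, at 292 ± 52.9 in al24567, 217 ± 18.9 in ring1a1b and 232 ± 29.0 in Col-0, and in ring1a1b and Col-0 it overlapped with KRP4.

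**Figure D5:**
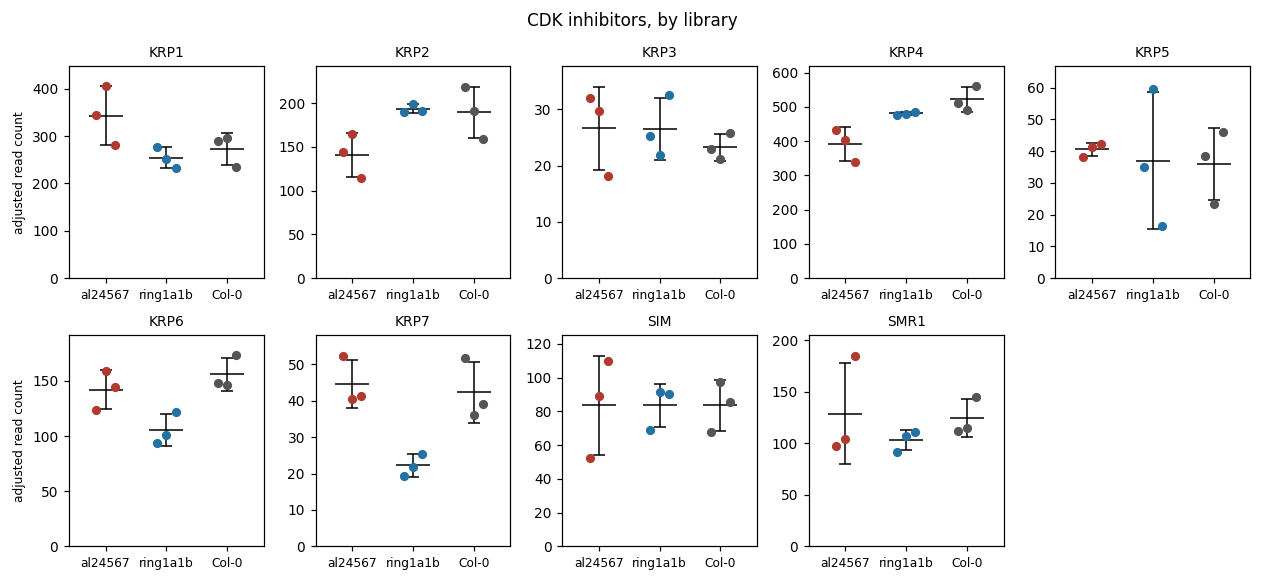
Adjusted counts (y axis, linear from 0) of the 9 inhibitor genes, with 1 point per library and the mean and SD as bars, for al24567, ring1a1b and Col-0 from left to right. KRP7 is lowest in the 3 ring1a1b libraries, and KRP4 is lowest in the 3 al24567 libraries.

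Taking the members over both mutants, 14 fell in al24567 and were not called in ring1a1b, 4 rose in al24567 and were not called in ring1a1b, 1 (CYCD1;1) went in opposite directions, 2 rose and 2 fell in ring1a1b and were not called in al24567, and 29 were called in neither. The same split was not counted over all genes. A call in one mutant alone does not show that the mutants differ, and ring1a1b minus al24567 tests that. By that comparison 6 of the 12 S phase genes were called higher in ring1a1b, where 20.0% of all genes were. Of the 21 mitotic genes 5 were called higher, or 23.8%, close to the share of all genes. In either class 0 were lower by limma, edgeR or DESeq2 or at an unadjusted p below 0.05, where limma called 18.9% of all genes lower. The class medians of ring1a1b minus al24567 were 0.29 for S phase genes, 0.30 for mitotic genes, -0.47 for D-type cyclins and -0.26 for inhibitors, beside 0.02 over all genes. With values rescaled to equal totals, the median over all genes in this comparison moved to 0.12, the share of called genes that were higher was 65.0% in place of 51.5%, and 19 members were called higher and 6 lower. For ring1a1b minus Col-0 the share of called genes that were higher was 69.8% under that scaling in place of 56.7%.

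Further genes of the same processes were read from 4 lists of 65 genes in all. In al24567, 12 of the 64 tested fell, where 18.4% of all genes did, and 3 rose, where 17.9% of all genes did, so that 23.4% were called against 36.3% of all genes. In ring1a1b, 2 fell and 0 rose by limma, or 3.12% against 17.7% of all genes, with 0 higher by edgeR or DESeq2 as well and 1 higher at an unadjusted p below 0.05. Of 17 further mitosis genes, 7 fell in al24567. HIK, a kinesin of cytokinesis, fell by 0.76 ± 0.13 (limma adjusted p = 0.000103), POK2, a kinesin that guides the division plane, by 0.77 ± 0.15 (adjusted p = 0.000601), the spindle protein TPX2 by 0.98 ± 0.20 (adjusted p = 0.000691) and POK1 by 0.54 ± 0.12 (adjusted p = 0.00116). AUR1, MAP65-3 and CENH3 also fell and CKS1 rose by 0.36, and these 4 names were chosen after their values were seen. CKS1 was lost on leaving out Col-0 replicate 1 or 2 (0.0949 and 0.0632) or al24567 replicate 1 (0.0880), and CENH3 without Col-0 replicate 1 or 3 (0.161 and 0.140) or al24567 replicate 1 or 3 (0.187 and 0.0949). TPX2 had 101, 186 and 114 adjusted counts in al24567, 94.1, 88.5 and 116 in ring1a1b and 218, 272 and 279 in Col-0, so that the libraries of both mutants lay below Col-0. Its annotated span, chr1:947520-951850, overlaps that of RING1B, chr1:944572-947682, a gene mutated in ring1a1b. In al24567, RING1B rose by 0.73 ± 0.20 (limma adjusted p = 0.00663), while TPX2 fell. The part of the RING1B allele or of shared reads in the TPX2 values was not tested in either mutant. In ring1a1b, TPX2 fell by 1.36 ± 0.20 (limma adjusted p = 7.1e-05) and POK1 by 0.35 ± 0.12 (adjusted p = 0.0413). The POK1 call was lost without any 1 of 5 libraries: Col-0 replicate 1, 2 or 3 (0.0702, 0.131 and 0.120) or ring1a1b replicate 2 or 3 (0.115 and 0.149). DESeq2 (0.0649) and equal totals (0.126) lost POK1 in ring1a1b too. In al24567, CENH3 was also lost by DESeq2 (0.0631), with a pseudocount of 0.1 (0.0538), no filter (0.0655) or only the 2 genotypes in the fit (0.0528), and CKS1 with equal totals (0.051).

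Few genes of the other lists were called. In al24567 limma called 21.4% of the transcriptional regulators, 5.26% of the further replication genes and 21.4% of the 14 endocycle genes tested. Each share was below the 36.3% of all genes, of which 18.4% fell and 17.9% rose. Of 14 transcriptional regulators, E2FC, a repressive E2F factor, rose in al24567 by 0.44 ± 0.16 (limma adjusted p = 0.036), while the E2F partner DPB fell by 0.47 ± 0.14 (adjusted p = 0.01) and TSO1 by 0.24 ± 0.08 (adjusted p = 0.0258). E2FC was lost on leaving out Col-0 replicate 2 or 3 (0.109 and 0.123), al24567 replicate 2 or 3 (0.106 and 0.0637) or with equal totals (0.0673), DPB without al24567 replicate 1 (0.0575), and TSO1 without Col-0 replicate 1 or 3 (0.106 and 0.0543) or al24567 replicate 1 or 3 (0.0769 and 0.0542). Of 19 further replication genes only FAS1, a subunit of chromatin assembly factor 1, was called in al24567, at -0.48 ± 0.18 (adjusted p = 0.0417), and not without Col-0 replicate 2 or 3 (0.111 and 0.136) or al24567 replicate 1 or 3 (0.159 and 0.134). Of 15 endocycle genes, 1 had no reads. CCS52B, which activates the anaphase-promoting complex in mitosis, fell by 0.69 ± 0.15 in al24567 (limma adjusted p = 0.00155). CCS52A2, of the same family, fell by 0.47 ± 0.18 (limma adjusted p = 0.0479). AT1G51355 rose by 1.24 ± 0.36 (adjusted p = 0.0112), a call lost on leaving out Col-0 replicate 1 (0.0698). CCS52A2 was lost on leaving out Col-0 replicate 1 or 3 (0.182 and 0.110) or al24567 replicate 1 or 2 (0.132 and 0.0974). DESeq2 called neither CCS52A2 (0.0665), FAS1 (0.0541) nor TSO1 (0.0526). FAS1 was lost with a pseudocount of 0.1 (0.0525) or no filter (0.0553) as well, and CCS52A2 with no filter or only the 2 genotypes in the fit (0.057 each).

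Markers of tissues with and without dividing cells were read beside these classes. Of 5 genes of differentiated root cells 4 were called higher in al24567 and 1 in ring1a1b, next to 17.9% and 10.0% of all genes. Their summed adjusted counts ran from 3830 to 4571 in al24567, 2748 to 3394 in ring1a1b and 2621 to 2894 in Col-0. Of 6 root meristem genes SCR and SHR were called higher in al24567, by 0.41 ± 0.08 and 0.38 ± 0.13, where 17.9% of all genes were. The other 4, all with few reads, had negative fold changes and were not called, and the median of the 6 was -0.49. These were PLT1 at -1.24 ± 0.48 (limma adjusted p = 0.0509, with no overlap), RGF1 at -0.97 ± 0.77, WOX5 at -0.89 ± 0.54 and PLT2 at -0.08 ± 0.40. Of 6 shoot meristem genes, 4 were tested and 1, STM, was called higher in al24567. WUS and CLV3, which define the shoot stem cell niche, had 0 reads in every library. The summed adjusted counts of 6 leaf mesophyll genes overlapped between genotypes, at 931116 to 1163707 in al24567, 1059255 to 1213744 in ring1a1b and 1092970 to 1238884 in Col-0. The 4 seed genes were all called higher in ring1a1b, with summed adjusted counts of 612 to 3169 in ring1a1b, 5.95 to 44.1 in al24567 and 2.12 to 6.29 in Col-0. OLEO2 among them was also called higher in al24567 (adjusted p = 5.75e-05), with 20 reads over the 3 al24567 libraries and 0 over those of Col-0. Of 6 stomatal lineage genes, SPCH was called lower in ring1a1b than in Col-0, at -0.64 ± 0.21 (limma adjusted p = 0.038), where 7.67% of all genes were. The other 5 were not called there, and TMM had a positive fold change, at 0.13 ± 0.09. In ring1a1b minus al24567, MUTE and EPF2 were called lower, at -1.03 ± 0.38 (adjusted p = 0.0363) and -0.97 ± 0.38 (adjusted p = 0.05, below the threshold before rounding), where 18.9% of all genes were. The other 4 were not called, with FAMA at 0.03 ± 0.12, TMM at -0.02 ± 0.09, EPF1 at -0.34 ± 0.29 and SPCH at -0.48 ± 0.21. CYCD7;1 was called lower in that comparison too, but not by edgeR or DESeq2. The part of tissue composition in the cell cycle values was not tested.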

How the data were processed

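RNA-seq was done on 9 libraries of whole seedlings, 3 per genotype; the labels call the molecule genomic although the assay is RNA-seq. Per the submitters' processing notes, bcl2fastq, HISAT2, edgeR and the TAIR10 build were used; versions, counter, annotation and strandedness are not given in the sources used here. The deposited signal values are not whole and not length-scaled, and were read from the values as counts that the authors had adjusted to a common library size with edgeR's quantile method. Inverting that adjustment, with a fitted dispersion of 0.00826, gave whole reads for 99.9993% of values, and 2 values failed (tolerance 0.01 reads, relative 1e-05).

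Since the values are adjusted, limma 3.58.1 (trend, R 4.3.3) on log2(value + 1) was the main test, over 23207 genes that reached 1 in 3 or more libraries. One model held all 9 libraries and left 6 residual degrees of freedom. The design had named this test for normalized values. edgeR 4.0.16 and DESeq2 1.42.0 on the recovered reads, other pseudocounts, filters, scalings and left-out libraries were alternatives. The test was checked on simulated data. The members and the lists of further genes and markers were chosen with earlier results of these data known. Named with values were each member called, the member with the smallest p in a class without calls, and up to 4 called genes per further list and comparison. Promoters were read from TAIR10.1 with its own annotation, which matched all 32548 identifiers.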

Additional observations from a re-analysis of the deposited data

How the results depend on the processing

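No called member changed direction under any alternative. Over the alternatives, 235 of 264 refits kept the call of a member in al24567 minus Col-0, 54 of 69 in ring1a1b minus Col-0 and 293 of 332 in ring1a1b minus al24567, and 13 of 19, 1 of 5 and 12 of 24 called members kept every call. In ring1a1b minus Col-0, where 3 members were called higher and 2 lower, an adjusted p below 0.01 left 1 higher and 0 lower, and equal totals or a minimum value of 100 left 1 lower. Under that minimum KRP7 was not tested, since its highest value in any library was 52.1. In ring1a1b minus al24567, with 16 called higher and 8 lower, an adjusted p below 0.01 left 9 higher and 5 lower. Leaving out 1 library gave 3 to 4 higher and 10 to 18 lower in al24567 minus Col-0. It gave 1 to 2 higher and 0 to 2 lower in ring1a1b minus Col-0, with 1 higher and 0 lower without Col-0 replicate 3, 0 lower without ring1a1b replicate 2, and 1 lower without Col-0 replicate 1 or ring1a1b replicate 1. It gave 10 to 20 higher and 5 to 7 lower in ring1a1b minus al24567, with 10 higher without al24567 replicate 3, 11 higher without ring1a1b replicate 3 and 5 lower without al24567 replicate 2; with a library left out, the spread is pooled over all 3 genotypes. Apart from the absence of KRP7 under the minimum of 100, why these counts moved was not tested.

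The labels do not say whether libraries with the same replicate number belong together. In their deviations from the group means, same-numbered libraries correlated weakly across genes, at 0.00572 to 0.0126 for al24567 and Col-0. The values were 0.0212 to 0.0377 for ring1a1b and Col-0, and -0.0172 to -7.67e-05 for ring1a1b and al24567. Each library correlated best with its own number in the first 2 pairs of genotypes and not in the third, a hint from the data and not from the design. With the replicate number as a block, 5 members were called higher and 16 lower in al24567 minus Col-0, 3 and 2 in ring1a1b minus Col-0 and 16 and 8 in ring1a1b minus al24567. Of the further genes named, CENH3 and CCS52A2 in al24567 had adjusted p of 0.0609 and 0.0544 with the block. The depth limits CYCD7;1 and CYCA2;1 most, with 27 and 20 reads over the al24567 libraries, 7 and 47 over the ring1a1b libraries and 9 and 33 over the Col-0 libraries.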
